A study of Mus musculus with 6 samples.

Results

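The genes described here encode the oxidative phosphorylation machinery of the mitochondrial inner membrane, as far as it is encoded in the nucleus. They were taken from the authors' table of normalized gene values by symbol: genes whose names start with Ndufa, Ndufb, Ndufc, Ndufs, Ndufv, Sdh, Uqcr, Cox4i1, Cox5, Cox6, Cox7, Cox8 or Atp5. Of 97 such genes, 3 pseudogenes, 8 Ndufaf genes for assembly factors and Ndufa4l2 were left out. This gave 85 members of the 19267 genes in that table: 36 of complex I, 4 of complex II, 8 of complex III, 16 of complex IV, 17 of complex V and 4 Sdhaf genes. The Sdhaf genes encode assembly factors of complex II, not subunits, and were taken in by their prefix. Ndufa4 was counted with complex IV, where its protein sits despite its name.

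Oxidative phosphorylation couples the burning of nutrients to the making of ATP. Complexes I and II pass electrons from NADH and succinate to ubiquinone, complex III passes them on to cytochrome c, and complex IV, cytochrome c oxidase, hands them to oxygen. Complexes I, III and IV pump protons as they do so, and complex V, the ATP synthase, uses the proton gradient to make ATP. Most subunits come from nuclear genes, while a small set of core subunits is encoded by mitochondrial DNA. Several subunits of complex IV exist as a common form and a form of particular tissues such as muscle, heart or testis. Fibroblasts make ATP by both glycolysis and respiration.

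RNA was measured on 6 1-colour Agilent arrays, 3 per group, from cells of transgenic mice with a GFP reporter for smooth muscle actin (SMA, gene Acta2). Both groups were sorted as CD45- and CD31-, which takes away white blood cells and endothelial cells. The skin group is SMA+, cells with low reporter signal from the dermis, labelled fibroblast-like. The wound group is SMA+++, cells with high reporter signal from wounds 7 days after injury, labelled myofibroblasts, the contractile cells of healing tissue. Neither strain, age nor a pooling of animals is given in the sources used here, and nothing in the labels ties the replicates to different animals, so p-values cover only how these samples vary, a spread that may be technical. Reporter level and injury changed together and cannot be told apart. Array pairs 1 and 2 of skin and wound were on array design 026655, and an unnumbered pair, called replicate 3 as a name only, was on design 028005. The series text names a human array beside a whole-genome one, while all 6 samples are labelled mouse and the probes were named as mouse genes.

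Between 64.4% and 72.6% of spots per array were well above background, and no spot was saturated (0 on each array). Acta2 was 4.71 log2 units higher in wound cells (standard error, SE, 0.16, adjusted p = 5.23e-05), which checks the labels. Of 8 markers of the sorted cells, 2 were higher (Acta2 and Tagln) and 1 lower (Pdgfra). The collagen genes Col1a1, Col1a2 and Col3a1 differed by 0.02 to 0.09. Dcn and Lum gave -0.52 and -0.28 (adjusted p = 0.0602 and 0.216) and were lower in each pair of arrays. In the authors' table Dcn passed (-0.58, adjusted p = 0.0384). Markers of other cells differed too: 6 of 8 mural cell markers and 3 of 6 endothelial ones were higher in wound cells. Of 6 keratinocyte markers, 5 were lower. Of all tested genes, 18.5% were higher and 15.6% lower. Krt1 and Dsp were well above background throughout the skin arrays only, and Emcn throughout the wound arrays only, so their calls rest partly on dim values. The summed level of the 8 mural markers, in units of the array's 75th percentile, was 22.0 to 39.1 on the skin arrays and 75.5 to 198 on the wound arrays. For the 6 keratinocyte markers it was 16.3 to 37.9 on skin and 4.15 to 9.98 on wound arrays. None of the 6 tested white blood cell markers passed (0 higher, 0 lower). The part of these markers in the results below was not tested.

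Values are log2 of the processed spot signal minus the array's 75th percentile, so that 1 unit is a 2-fold step. They can be compared between arrays of 1 design for 1 gene, but not between genes or between designs. The comparison asks how wound cells differed from skin cells within array design, by limma with the design as a term, and a gene was called at a Benjamini-Hochberg adjusted p under 0.05 over all 16742 genes tested. All 85 members passed the filter on dim probes, and 84 were well above background on all 6 arrays. In bulk RNA, fewer cells of a type and less RNA per cell cannot be told apart.

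Few oxidative phosphorylation genes differed between wound and skin cells by enough to be called. Of the 85 members, 9 were higher, 2 were lower and 74 did not pass. That is 12.9% of members called, beside 34.0% of all tested genes (18.5% higher and 15.6% lower). The 9 that rose did so by 1.41-fold to 1.84-fold: Atp5md, Uqcrq, Ndufa3, Cox6a1, Ndufa4, Ndufa12, Ndufs4, Atp5mpl and Cox7c. The 2 that fell, Cox6b2 and Cox8b, encode tissue forms of complex IV subunits. A 2-fold difference with a call was reached by 2 members, Cox6b2 and Cox8b, beside 20.2% of all tested genes. Cox8b passed the filter on dim probes through the skin arrays alone, as its wound values were not well above background.

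The measured differences, most of them without a call, were small and mostly above 0. The median log2 difference over the members was 0.33, beside 0.04 over all tested genes, and 73 of 85 members (85.9%) were above 0, beside 52.9% of all genes. In 52 members all 3 pairs of arrays were higher in wound and in 7 all 3 were lower, beside 35.3% and 29.2% of all genes. An unadjusted p under 0.05 was reached by 26 members, 30.6% of them, beside 44.3% of all genes. The SE of a member's difference lay between 0.14 and 0.33, with a median of 0.18. For 70 of the 74 members without a call, the 95% interval of the difference lay wholly inside 1 log2 unit on either side of 0, so those intervals exclude a 2-fold change. That interval lay wholly above 0 for 15 of the 74.

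The pairs differed in how far the members stood above the other genes. The median difference over the members was 0.54 in pair 1, 0.26 in pair 2 and 0.20 in the unnumbered pair, while that of all genes was 0.04, 0.08 and 0.02. Pair 1 held the largest of the 3 differences for 64 of the 85 members, a count that was not made over all genes. Without wound replicate 1 the median over the members was 0.18 and 1 member, Atp5md, was called higher. That count was also 1 without skin replicate 1 and without skin replicate 2, each time Atp5md.

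**Figure D1:**
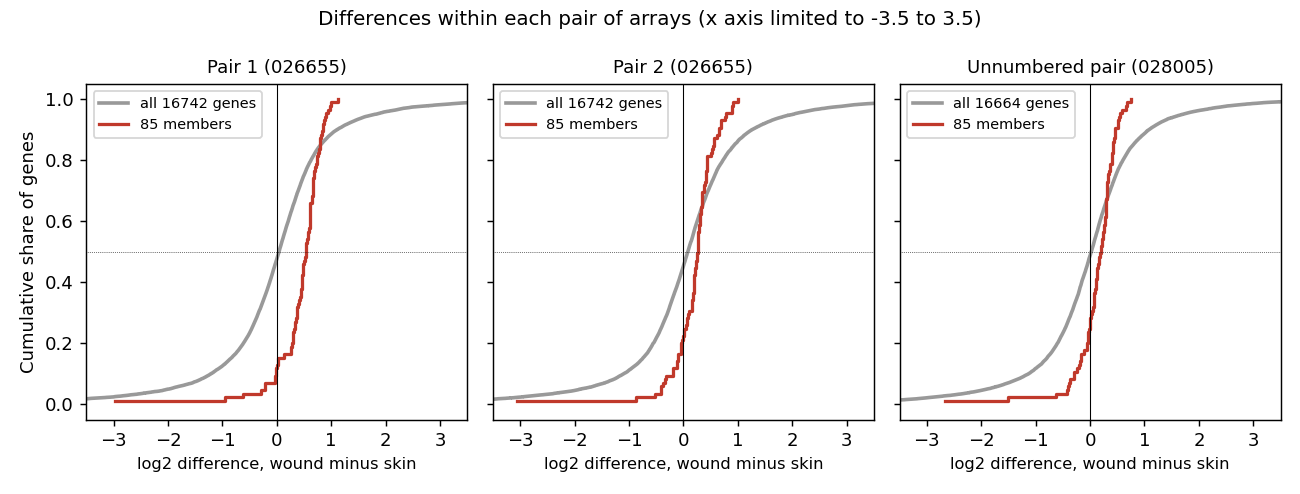
Cumulative share of genes (y axis) by log2 difference of wound minus skin (x axis) within each pair of arrays, for all tested genes (grey) and the 85 members (red). The red curves are steeper than the grey ones and cross the middle line to their right, at 0.54, 0.26 and 0.20, with a few members far to the left.

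The median over the members stayed above that of all genes under each scaling tried. The gap was 0.29 as reported and also with detected-probe scaling, 0.31 with normexp, 0.28 in the authors' deposited table and 0.16 with quantile normalization. Scaling to the 75th percentile of detected probes moved the median of all genes to -0.05, and that of the members to 0.24, with 69 of 85 above 0. Quantile normalization gave 0.18 for the members and 0.02 for all genes, with 65 of 85 above 0. The authors' deposited table gave 0.24 and -0.03, with 67 of 85 above 0, and 6 of 85 members called beside 31.5% of its genes. Of the 9 members called higher, detected-probe scaling, quantile normalization and the authors' deposited table, which also combines probes in its own way, each kept 3. That table added a call for Ndufab1.

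**Figure D2:**
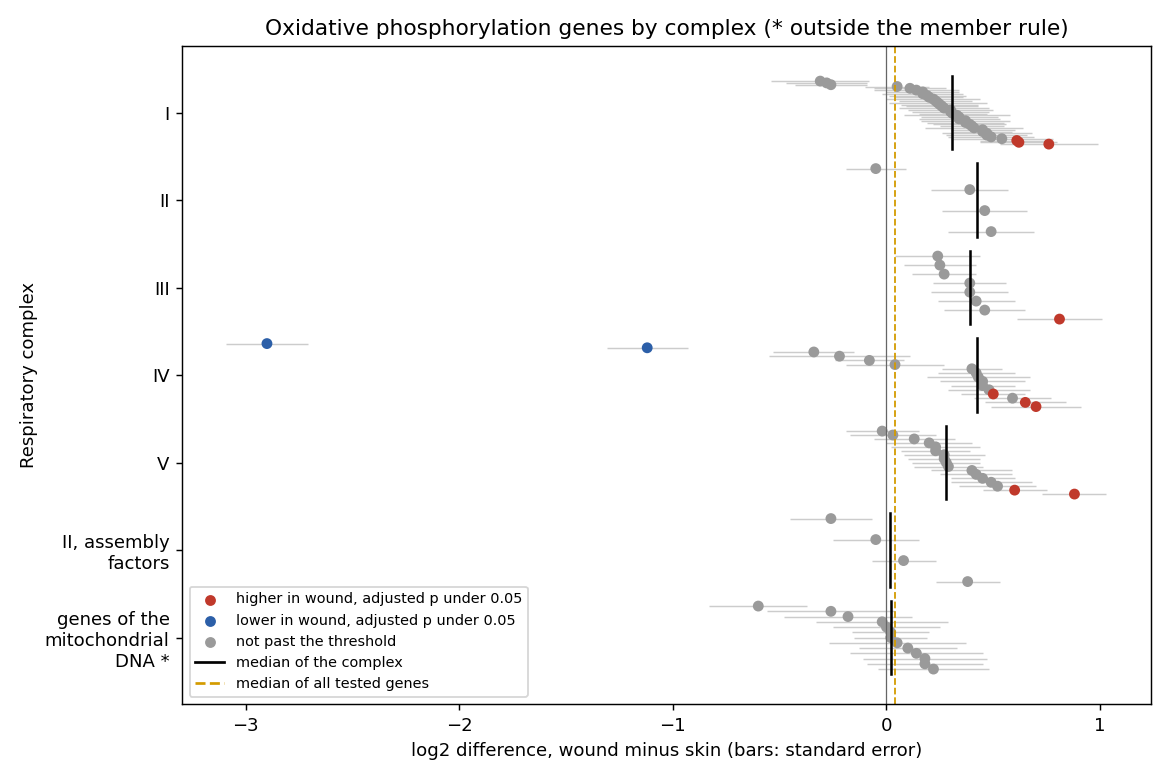
Log2 difference of wound minus skin (x axis, bars give the SE) of every member, by respiratory complex (y axis), with the genes of the mitochondrial DNA in the bottom row. Red and blue points were called higher and lower, black lines are medians, and the dashed line is the median of all tested genes. Most grey points lie right of the dashed line, and the 2 blue points are Cox8b and Cox6b2. The wound value of Cox8b was not well above background.

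Complex I, the NADH dehydrogenase, had 3 of 36 members called higher and none lower (0), with a median of 0.31. That is 8.33% called, beside 34.0% of all tested genes. The 3 are accessory subunits, which surround the catalytic core. None of the 3 kept its call with detected-probe scaling, quantile normalization or in the authors' deposited table. Over all settings tried, Ndufa3 lost its call in 13, Ndufa12 in 11 and Ndufs4 in 9. Ndufa3 stood at 3.97 and 3.49 on the skin arrays of design 026655 and at 4.90 and 4.39 on its wound arrays, and at 5.16 (skin) and 5.59 (wound) on design 028005. Its difference was 0.76 (SE 0.23, adjusted p = 0.0471). A dimmer probe of Ndufa3, also well above background on all 6 arrays, gave a mean difference of -0.37, so the rise is that of the brighter probe. With the mean of both probes the difference was 0.19 (adjusted p = 0.676).

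Ndufa12 and Ndufs4 encode accessory subunits of the arm that takes up NADH. Ndufa12 rose by 0.62 (SE 0.18, adjusted p = 0.0412), from 3.06 and 2.91 on the skin arrays to 3.83 and 3.33 on the wound arrays of design 026655, and from 3.85 to 4.53 on design 028005. For Ndufs4, whose loss is a cause of Leigh syndrome, the skin arrays gave 2.22 and 2.09 and the wound arrays 3.01 and 2.85 on design 026655. Design 028005 gave 3.61 for skin and 3.90 for wound, and the difference was 0.61 (SE 0.17, adjusted p = 0.0358). For both genes each wound array was above every skin array of its design, as in 50 of the 85 members and 5327 of all 16742 genes tested.

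Of the 7 core subunits of complex I, none was called (0 of 7), and their median was 0.30. The iron-sulphur subunits Ndufs8, Ndufv2 and Ndufs1 gave 0.49, 0.40 and 0.05, and Ndufv1, which binds the flavin, 0.23. Ndufs3 gave 0.30. Ndufs7, the iron-sulphur subunit next to ubiquinone, was the core subunit with a negative value, -0.26 (adjusted p = 0.296), and lay below skin in each pair, by -0.01, -0.38 and -0.38. The 26 accessory subunits without a call ranged from -0.31 (Ndufb10) to 0.54 (Ndufb7). Among them Ndufc2, a membrane subunit, had 0.45 (SE 0.15, adjusted p = 0.0603). Ndufab1, the mitochondrial acyl carrier protein, gave 0.37 with its brighter probe (adjusted p = 0.156) and 1.32 with the dimmer one. It was called with the mean of both probes (0.85, adjusted p = 0.0195) and in the authors' deposited table (0.79, adjusted p = 0.0269), and was named after these values were seen. Ndufv3 and Ndufb11 had 0.17 and 0.20, which changed sign in the authors' deposited table (-0.02 and -0.03).

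Complex II, succinate dehydrogenase, had a median of 0.43. None of its 4 subunits was called (0 higher, 0 lower), beside 34.0% of all tested genes. Its membrane anchors Sdhc and Sdhd gave 0.46 and 0.49, and its iron-sulphur subunit Sdhb 0.39, with adjusted p of 0.124, 0.109 and 0.137. Sdha, the flavoprotein that oxidises succinate, gave -0.05 (SE 0.14, 95% interval -0.40 to 0.30), with pair differences of -0.03, -0.10 and -0.02. The 4 Sdhaf assembly factors ranged from -0.26 to 0.38 and none was called (0 of 4).

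Complex III, the cytochrome bc1 complex, had 1 of 8 members called, higher in wound cells (12.5%, beside 34.0% of all tested genes). All 8 were above 0, with a median of 0.39. Uqcrq, a small subunit that contacts cytochrome b, was at 3.69 and 3.53 on the skin arrays and 4.82 and 4.30 on the wound arrays of design 026655. On design 028005 it was at 5.55 and 6.07. Its difference was 0.81 (SE 0.20, adjusted p = 0.0244), and its second probe gave 0.77. The core proteins Uqcrc1 and Uqcrc2 gave 0.39 and 0.27, and Uqcrfs1, the Rieske iron-sulphur protein, 0.42 (adjusted p = 0.152, 0.206 and 0.125). Cyc1, the cytochrome c1 subunit, lies outside the symbol rule and gave 0.23 (adjusted p = 0.345).

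Complex V, the ATP synthase, had 2 of 17 members called higher and none lower (0), with a median of 0.28. That is 11.8% called, beside 34.0% of all tested genes. Both called members encode small proteins of the membrane part. Atp5md had the largest difference of any member that rose. Its skin arrays were at 3.67 and 3.60 and its wound arrays at 4.64 and 4.60 on design 026655, and at 5.17 and 5.84 on design 028005. The difference was 0.88 (SE 0.15, adjusted p = 0.00587). For Atp5mpl the skin arrays gave 3.69 and 3.65, the wound arrays 4.40 and 4.35, and design 028005 gave 5.23 and 5.64, a difference of 0.60 (SE 0.15, adjusted p = 0.0221). In both genes the replicates on design 026655 were within 0.07 of each other in each group. The groups did not overlap within a design, as in 50 of the 85 members and 5327 of all 16742 genes tested.

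The other 3 small membrane subunits, Atp5j2, Atp5k and Atp5l, gave 0.42, 0.27 and 0.29 without a call. The subunits of the F1 head and central stalk, which hold the catalytic sites and the turning shaft, had a median of 0.23 and no call (0 of 5): Atp5a1 -0.02, Atp5b 0.23 and Atp5c1 0.27 among them. The 3 genes for the c subunit, whose ring turns in the membrane, gave 0.20 for Atp5g1, 0.52 for Atp5g2 and 0.49 for Atp5g3, and none was called (0 of 3). Atp5g1 depended on the probe: its brighter probe gave 0.20 and the other -0.81, both well above background on all 6 arrays. The peripheral stalk had a median of 0.34 and no call (0 of 4), with Atp5h at 0.03. These divisions of complexes I and V were drawn with the values known and serve as description.

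Complex IV held 5 of the 11 calls, 3 higher and 2 lower among 16 members, with a median of 0.43. That is 31.2% of its members called, near the 34.0% of all tested genes. Cox6a1, the common form of subunit 6a, rose by 0.70 (SE 0.21, adjusted p = 0.0444). Its skin arrays were at 6.46 and 6.09 and its wound arrays at 7.35 and 6.98 on design 026655, and design 028005 gave 7.78 and 8.10. Ndufa4 rose by 0.65 (SE 0.19, adjusted p = 0.0402), from 2.28 and 2.27 to 3.28 and 2.92 on design 026655 and from 3.82 to 4.12 on design 028005. Cox7c rose by 0.50 (SE 0.15, adjusted p = 0.0428), from 3.24 and 3.09 to 3.76 and 3.70, and from 4.81 to 5.17. In these genes every wound array was above the skin arrays of its design, as in 50 of the 85 members and 5327 of all 16742 genes tested. With a replicate block in place of the design, Ndufa4 and Cox7c lost their calls (adjusted p = 0.0525 and 0.0536), and with the design as a random block Cox7c did (adjusted p = 0.0685). The brightest Cox7c probe differed between the designs, and with 1 probe on both its difference was 0.59 (adjusted p = 0.0286). Its call was lost in 15 of the settings tried, among them averaged probes (0.58, adjusted p = 0.0662), and kept in 3.

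**Figure D3:**
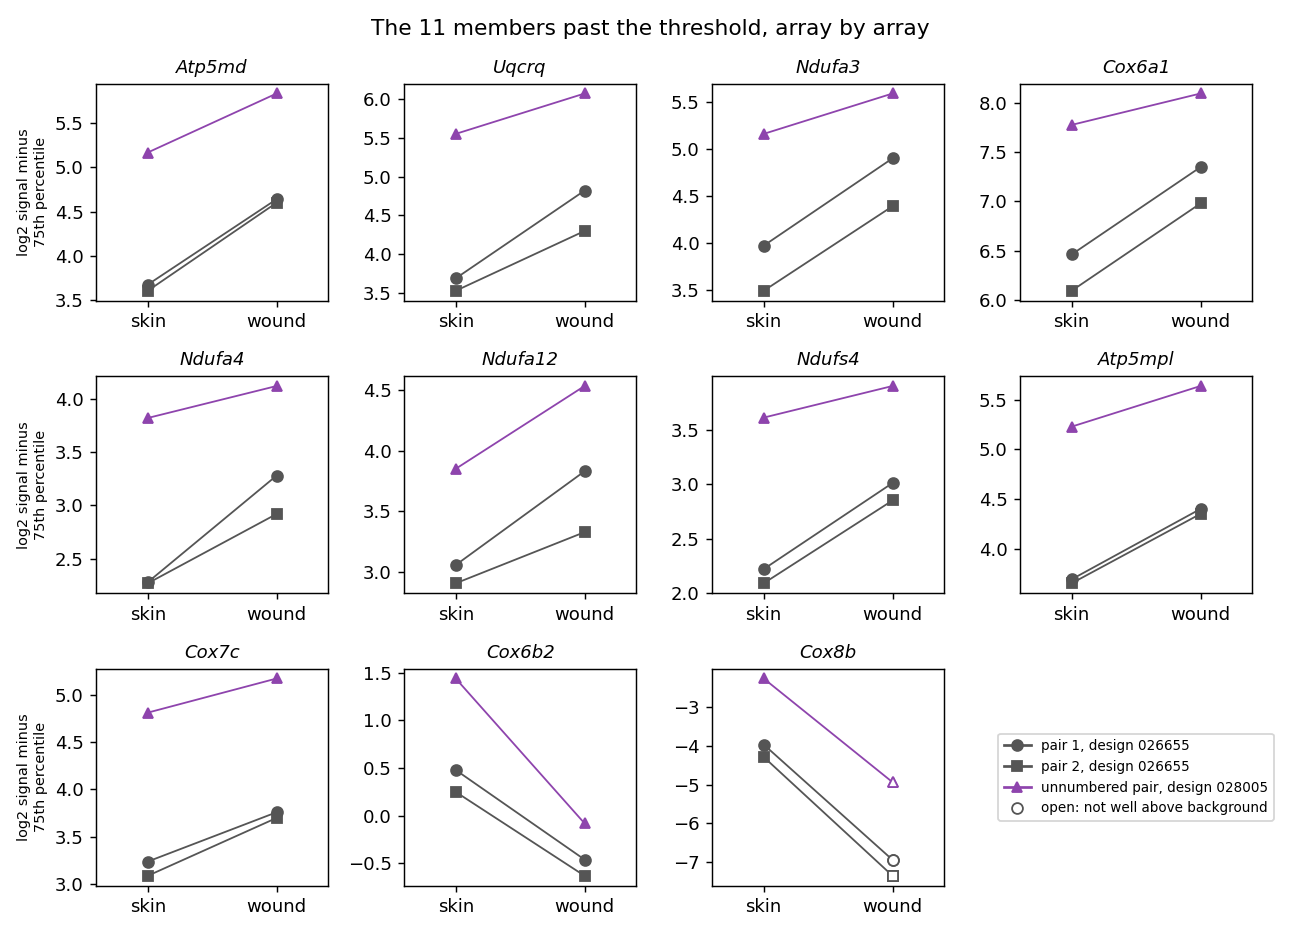
Log2 signal minus the array's 75th percentile (y axis, own scale per gene) on each skin and wound array for the 11 members called, with lines joining arrays of the same pair. Grey is design 026655, purple design 028005, and open symbols mark arrays where Cox8b was not well above background. In each of the 11 genes the 3 lines run the same way, up in 9 and down in Cox6b2 and Cox8b.

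The largest differences of any member were the falls of Cox8b and Cox6b2. Cox8b encodes the subunit 8 of heart, skeletal muscle and brown fat, and was at -3.97, -4.29 and -2.27 on skin replicates 1, 2 and 3. It was at -6.94, -7.35 and -4.94 on the wound arrays, where it was not well above background. Set against the lowest signal that was, it was at least 3.59-fold lower in wound cells, a bound that was not tested. The fitted log2 difference of Cox8b, which uses those background-level wound values, was -2.90 (SE 0.19). Its call sets skin signal against background, so no p-value is given. Under normexp background correction, which draws dim signals together, its log2 difference was -0.73. Cox6b2, known as the testis form of subunit 6b, was at 0.48, 0.25 and 1.44 on the skin arrays and at -0.46, -0.63 and -0.08 on the wound arrays, all 6 well above background. It fell by 1.12 (SE 0.19, adjusted p = 0.00563), and each wound array was below every skin array of its design. All 3 pairs were lower in wound, as in 29.2% of all tested genes.

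The common counterparts of these genes went the other way or did not pass. Cox8a gave 0.42 (SE 0.18, adjusted p = 0.118) and Cox6b1 gave 0.59 (SE 0.18, adjusted p = 0.0513). Within an array, Cox6b1 relative to Cox6b2 was higher in wound than in skin by 1.86, 1.20 and 2.05 log2 units in the 3 pairs (mean 1.70, SD 0.45, n = 3; exact permutation test within array design, two-sided p = 0.167). That is the smallest p these 6 arrays allow within design, so the test cannot pass 0.05. From skin to wound, the same ratio for Cox6a1 and Cox6a2 changed by 1.52, 1.3 and -0.07 (mean 0.92, SD 0.86). For Cox7a2 and Cox7a1 the ratio changed by 0.09, -0.48 and 0.31 (mean -0.03, SD 0.4). For Cox8a and Cox8b it changed by 3.63, 3.38 and 2.96, which rests on Cox8b wound values not well above background. A shift towards the common form was thus not shared by all these subunits. A ratio within an array shows unequal change and not which gene moved. The muscle form Cox6a2 gave -0.22 (SE 0.33, adjusted p = 0.651), with pair differences of -0.62, -0.42 and 0.40. Cox7a1, the muscle form of subunit 7a, gave 0.43 (SE 0.24, adjusted p = 0.214), and its common counterpart Cox7a2 0.40 (adjusted p = 0.0684).

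Markers of tissues that use these forms were set beside them. Of 8 skeletal muscle markers, Ckm and Myh1 were well above background on no array and Myh4 on 1. Acta1 and Des were higher in wound cells (log2 3.68 and 3.36), while Tnnt3, Actn3 and Myod1 gave -0.11, 0.14 and -0.49 without a call. The summed level of the 8 was 0.603 to 1.95 on the skin arrays and 3.26 to 12.9 on the wound arrays, most of it from Acta1 and Des on the latter. Of 6 adipocyte markers, Fabp4 was higher in wound cells (log2 2.76, adjusted p = 0.000316) and Adipoq gave 0.36 (adjusted p = 0.459). Cidec was well above background on no array, Plin1 on 1 array of each group, and Lep on 2 skin arrays and 1 wound array. Ucp1, the uncoupling protein of brown fat, was so on 3 wound arrays and 0 skin arrays. It passed the filter on dim probes through the wound arrays alone, so no p-value is given. The summed level of those 6 was 1.25 to 4.47 on skin arrays and 10.5 to 25.2 on wound arrays, mainly Fabp4. The part of these cells in the values of Cox8b was not tested.

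The remaining subunits of complex IV were not called. Cox4i1, the common form of subunit 4, gave 0.04 (SE 0.23, 95% interval -0.51 to 0.60), with pair differences of 0.33, 0.09 and -0.29. It turned to -0.05, -0.08 and -0.02 under detected-probe scaling, quantile normalization and in the authors' deposited table. Cox5a, Cox5b and Cox7b gave 0.48, 0.45 and 0.45, and Cox6c gave -0.08. Cox7a2l, a factor that joins complexes III and IV into supercomplexes, gave -0.34 (SE 0.19, adjusted p = 0.21), negative in each pair and with each of its 3 probes.

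Cox4i2, Ndufa4l2 and AA467197, paralogues outside the symbol rule, were each called. Cox4i2, the form of subunit 4 known from lung and low oxygen, rose by 0.97 (SE 0.15, adjusted p = 0.00426), from -0.91, -0.99 and 0.37 on the skin arrays to 0.08, -0.17 and 1.47 on the wound arrays. Ndufa4l2, a relative of Ndufa4 known to respond to low oxygen, fell by 1.04 (SE 0.23, adjusted p = 0.0152), from 4.43, 3.71 and 5.56 to 3.19, 2.85 and 4.52. AA467197, another relative of Ndufa4, known from inflamed tissue, rose by 2.48 (SE 0.31, adjusted p = 0.00171), from -4.08, -4.33 and -3.66 to -1.36, -2.46 and -0.79. The difference between a paralogue and its member was not tested.

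**Figure D4:**
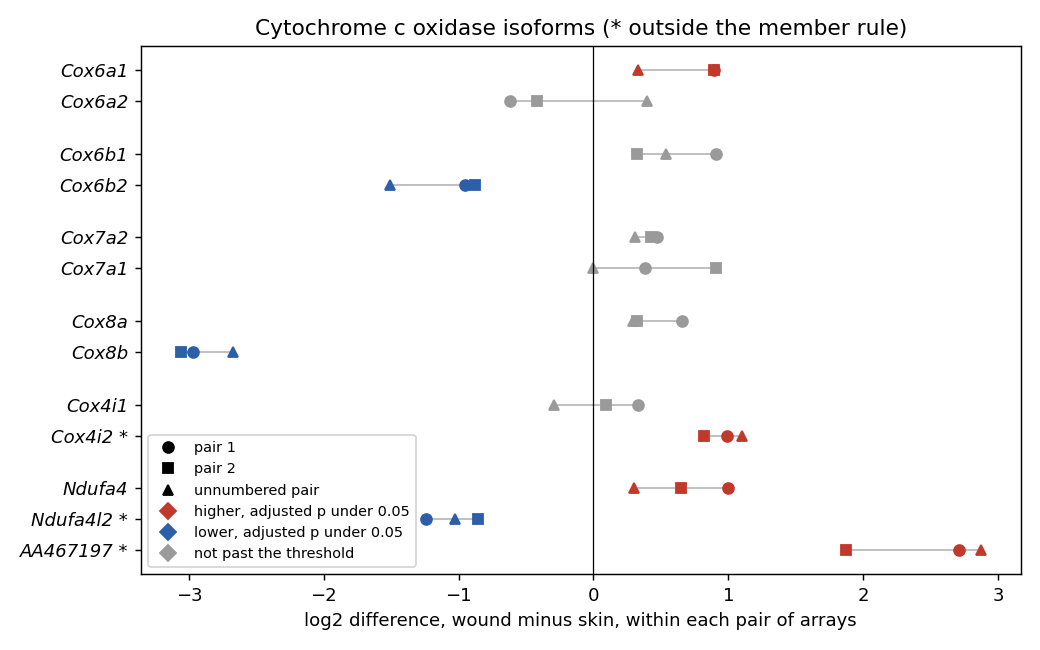
Log2 difference of wound minus skin (x axis) in each of the 3 pairs of arrays for isoforms and relatives of complex IV subunits (y axis); stars mark genes outside the symbol rule. Colours give the call over all arrays. Cox8b and Cox6b2 lie left of 0 in each pair, while their common counterparts Cox8a and Cox6b1 lie right of it.

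Promoter sequences of 4 members are shown because these genes moved furthest in each direction or carry more than 1 searched motif. They run from 250 bases before to 50 bases after the annotated start, from RefSeq on GRCm38.p6, 5′ to 3′ on the gene's own (minus) strand. Capitals mark matches, on either strand, to any of the motifs named after them.
Atp5md, chr19:47090598-47090897: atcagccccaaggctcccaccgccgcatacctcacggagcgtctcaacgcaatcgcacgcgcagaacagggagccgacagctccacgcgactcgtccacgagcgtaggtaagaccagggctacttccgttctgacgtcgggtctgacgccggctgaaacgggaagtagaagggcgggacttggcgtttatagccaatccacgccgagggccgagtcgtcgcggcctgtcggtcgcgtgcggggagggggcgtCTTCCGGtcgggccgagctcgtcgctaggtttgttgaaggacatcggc
Cox6a1, chr5:115348909-115349208: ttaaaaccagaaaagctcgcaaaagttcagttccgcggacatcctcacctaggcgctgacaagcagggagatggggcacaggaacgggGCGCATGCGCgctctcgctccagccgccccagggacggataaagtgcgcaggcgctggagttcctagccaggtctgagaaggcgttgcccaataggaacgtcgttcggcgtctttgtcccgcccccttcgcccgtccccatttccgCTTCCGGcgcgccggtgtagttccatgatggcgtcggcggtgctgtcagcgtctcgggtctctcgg
Cox8b, chr7:140900397-140900696: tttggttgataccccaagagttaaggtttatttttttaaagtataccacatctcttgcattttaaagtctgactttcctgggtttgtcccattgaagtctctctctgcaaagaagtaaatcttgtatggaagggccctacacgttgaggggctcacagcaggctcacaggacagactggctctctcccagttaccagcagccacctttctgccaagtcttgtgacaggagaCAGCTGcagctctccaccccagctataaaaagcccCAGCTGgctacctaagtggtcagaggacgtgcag
Cox6b2, chr7:4753045-4753344: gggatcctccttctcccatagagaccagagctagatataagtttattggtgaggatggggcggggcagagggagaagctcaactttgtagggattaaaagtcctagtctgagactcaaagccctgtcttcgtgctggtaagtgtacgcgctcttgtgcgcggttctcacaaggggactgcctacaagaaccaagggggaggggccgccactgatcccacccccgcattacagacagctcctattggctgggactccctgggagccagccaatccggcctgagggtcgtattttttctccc

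The motifs searched were GCATGCGC (part of the site of NRF1, a regulator of respiratory genes), CCGGAAG (ETS factors such as GABP), AAGATGGC (YY1), TCAAGGTCA (ERR receptors), TGACGTCA (CREB) and the E-box CAGCTG, each on both strands, and no motif holds another. The Atp5md promoter has the ETS letters just after the start, and that of Cox6a1 has the NRF1 letters on both strands, overlapping, and the ETS letters before it. Cox8b has the E-box letters 2 times, and Cox6b2 has none of the 6 motifs in this window. An entry was found for 72 of the 85 members. Of these, 13.9% had a match to NRF1 and 27.8% to ETS, beside 5.19% and 17.0% of all tested genes with an entry. For YY1 the shares were 13.9% and 4.55%, for ERR 2.78% and 0.306%, and for CREB 5.56% and 3.29%. The E-box was found in 8.33% of members and 18.3% of all tested genes. Among the 7 members called higher with an entry, 2 held ETS, 2 held YY1 and 1 held NRF1. The motifs were chosen with the values known, and a match is a description of the letters and no sign of binding.

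The 13 subunit genes of the mitochondrial DNA, which the symbol rule does not take, were all measured. None of the 13 was called (0 higher, 0 lower), beside 34.0% of all tested genes. The median difference of the 13 was 0.02, beside 0.33 for the 85 nuclear members. By pair the mitochondrial genes gave -0.24, 0.62 and -0.24 and the nuclear members 0.54, 0.26 and 0.20, so the pair with the highest median differed between the sets. For example, mt-Co1, the catalytic subunit of complex IV, was at 7.88, 7.85 and 9.42 on the skin arrays and 7.74, 8.22 and 9.23 on the wound arrays (difference 0.02, SE 0.18). The values of mt-Cytb, cytochrome b of complex III, were 7.10, 6.92 and 8.04 on skin and 6.96, 7.81 and 7.95 on wound arrays (0.22, SE 0.26). Only mt-Nd6 among the 13 had the same sign in each pair, -0.65, -0.45 and -0.69 (SE 0.23, adjusted p = 0.0905). The SE of these genes ran from 0.17 to 0.32. The median of the 13 was between -0.07 and 0.03 under the scalings tried, and the difference between the 2 sets was not tested.

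Genes around the chain were mixed. Of 16 carriers and paralogues tested, 4 were higher and 4 lower in wound cells, beside 18.5% and 15.6% of all genes. Higher were Cox4i2, AA467197, Cycs and Slc25a4, and lower were Ndufa4l2, Ucp2, Ucp3 and Aox1. Aox1 encodes an aldehyde oxidase and no part of the chain, and was put on the list in error. Cycs, cytochrome c itself, rose by 0.67 (SE 0.16, adjusted p = 0.0199) with its brightest probe, but gave 0.12 with the mean of its probes (adjusted p = 0.667). Slc25a4, an exchanger of ADP and ATP, rose by 0.82 (adjusted p = 0.0165), and the uncoupling protein genes Ucp2 and Ucp3 fell by 0.97 and 0.90 (adjusted p = 0.0191 and 0.00738). With the mean of its probes Ucp3 gave -0.31 (adjusted p = 0.201). Slc25a4, Ucp2 and Ucp3 were named after their values were seen.

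Assembly factors mostly did not pass the threshold, which 34.0% of all tested genes passed. Of those for complex I, 0 of 18 were called, and of those for complex III 1 of 6 was higher, Ttc19 (0.89, adjusted p = 0.00712). Of 22 factors for complex IV, Cmc2 rose by 0.70 and Surf1 fell by 0.68 (adjusted p = 0.0256 and 0.0187). Of 4 factors for complex V, Tmem70 rose by 0.78 (adjusted p = 0.0125). Of 13 genes that transcribe or keep up mitochondrial DNA, Polg2, a subunit of its polymerase, fell by 0.93 (adjusted p = 0.00968), and none was higher (0). Tfam, the main packaging and transcription factor of that DNA, gave -0.24 (adjusted p = 0.28); it was named after its value was seen.

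Of 13 regulators of mitochondrial biogenesis, 3 were higher and 1 lower, beside 18.5% and 15.6% of all tested genes. Hif1a, the low-oxygen factor, rose by 1.41 (SE 0.15, adjusted p = 0.000979). Ppargc1a, the coactivator PGC-1alpha, was dim and rose by 1.19 (SE 0.27, adjusted p = 0.0173), with 0.41 under normexp (adjusted p = 0.0589). Its relative Ppargc1b fell by 1.36 (SE 0.20, adjusted p = 0.00302), was well above background on 1 of 3 wound arrays, and gave -0.32 under normexp (adjusted p = 0.159). Esrra, the receptor ERRalpha that works with these coactivators, rose by 1.13 (SE 0.16, adjusted p = 0.00312), from 0.76, 0.46 and 2.10 on skin arrays to 1.91, 1.76 and 3.05 on wound arrays. It was named after its value was seen.

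Of 19 citric acid cycle genes, 4 were higher and 1 lower, beside 18.5% and 15.6% of all tested genes. Among the 4 were citrate synthase, Cs (0.67, adjusted p = 0.0249), and malate dehydrogenase, Mdh2 (0.66, adjusted p = 0.0453). Dlat, a subunit of pyruvate dehydrogenase, fell by 0.53 (adjusted p = 0.0498), a call lost with quantile normalization, normexp and the mean of probes (adjusted p = 0.0512, 0.12 and 0.0529). Detected-probe scaling and quantile normalization each left 1 of the 19 called higher. Of 27 genes of import and of the inner membrane, 2 were higher and none lower (0), beside 18.5% and 15.6% of all tested genes. Timm23, the channel of the inner membrane, and Opa1, which fuses it, rose by 0.69 and 0.53 (adjusted p = 0.0251 and 0.03). Opa1 gave 0.25 with the mean of its probes (adjusted p = 0.238). In the authors' deposited table none of these 27 was called (0) in either direction, with Timm23 at an adjusted p of 0.0525.

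How many members were called depended on the processing. Counts of members called higher ran from 0 to 13 over the choices tried, and those of members called lower were 1 or 2. Uqcrq lost its call in 5 settings, Atp5mpl in 7, Cox6a1 in 8 and Ndufa4 in 10. Atp5md kept its call with quantile normalization, in the authors' deposited table, without a filter on dim probes and without each array in turn. It lost it with no term for the array design (adjusted p = 0.64), where Cox8b was the member still called. Cox6b2 and Cox8b kept theirs in the same settings, and Cox6b2 lost it with no design term (adjusted p = 0.386). The calls of Cox8b rest on wound values that were not well above background.

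**Figure D5:**
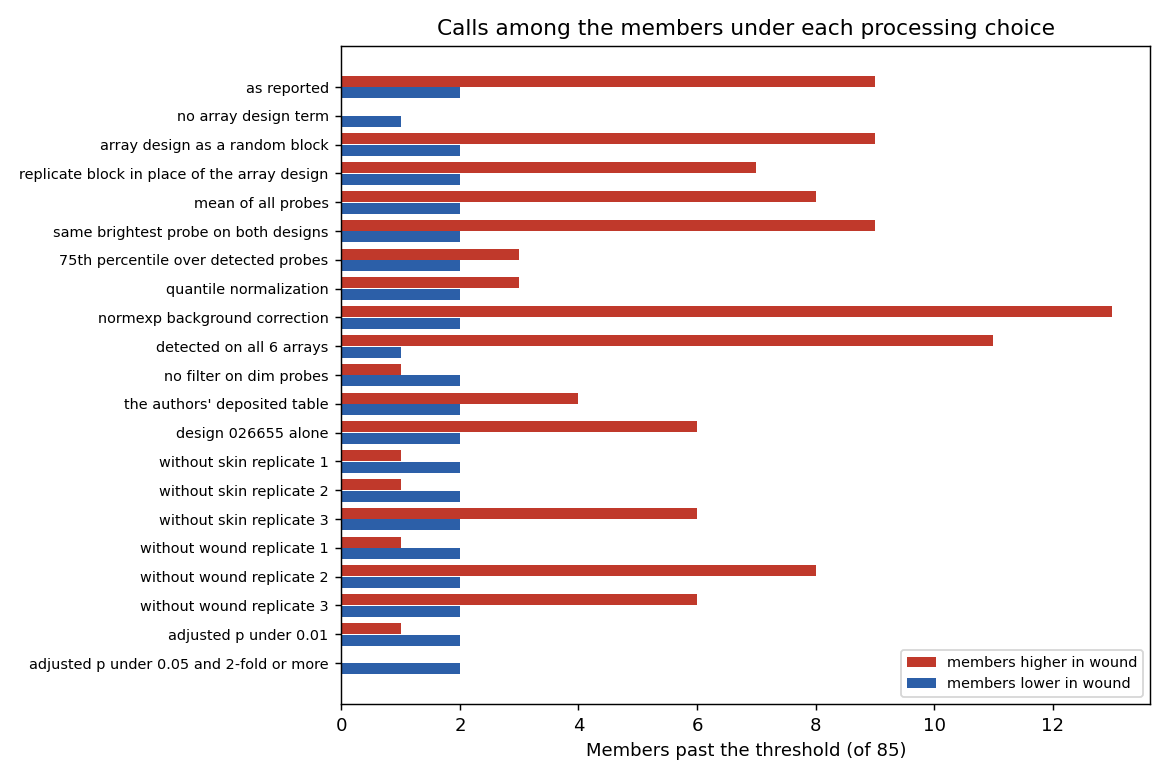
Number of the 85 members called higher (red) and lower (blue) in wound cells (x axis) under each processing choice (y axis), the first row being the choice reported. The count of higher calls goes from 9 as reported to 13 with normexp and 0 with no design term, while the count of lower calls is 1 or 2.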

How the data were processed

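Members and gene lists were chosen with earlier results of these data known. The authors extracted the intensity of each spot with Agilent Feature Extraction 10.7.3.1, per the file headers, and the deposited files hold linear intensities, background-subtracted and detrended in the processed signal. The authors' deposited table, made with GeneSpring 14.5 per the submitters' processing notes, holds gene values whose scale is not stated. Differences between its columns matched log2 differences of the scanner values (slopes 1.0, 1.0 and 0.974 over 16545 genes in pairs 1, 2 and the unnumbered one), so the deposited values were taken as log2, in the same direction. Its column medians were -0.21, -0.25 and -0.25 for skin and -0.28, -0.27 and -0.23 for wound. The sources used here do not give how its probes were combined.

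Control and outlier spots were left out, spots of a probe averaged, and the array's 75th percentile subtracted from log2 values. Probes were named through the table's gene identifiers or their accession. Of 19267 identifiers, 18040 were found in the RefSeq names (GRCm38.p6, for names and promoters only). The scanner files carry no gene names here, and the probe with the highest mean per gene and design was used. Of 23071 genes on both designs, 16742 had that probe well above background throughout the 3 arrays of skin or of wound and were tested with limma 3.58.1 (R 4.3.3), lmFit and eBayes, with array design, also slide and scan, as a term (3 residual degrees of freedom, 6.25 after moderation). The script was tested on simulated data. Tables used Python 3.11.15, pandas 2.3.3 and matplotlib 3.10.9. The planned normexp on mean signals used median signals, the column present (offset 50). The number of arrays limits the precision.

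Genes were named by rule: the 3 called members with the largest rise and fall per complex, isoform pairs, the catalytic core, members whose call was lost or sign turned with averaged probes or in the authors' deposited table, and of each other list the 2 called genes with the largest change each way. Other genes named were chosen after their values were seen. Alternatives were other scalings, probe rules, filters, models and leaving out each array. The values of 1 member are not reported here.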

Additional observations from a re-analysis of the deposited data

How the results depend on the processing

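With no term for the array design, 1768 genes were called, 0 members higher and 1 lower. Members called higher numbered 3 with detected-probe scaling, 3 with quantile normalization, 1 without a filter on dim probes, 4 in the authors' deposited table, 1 at an adjusted p under 0.01 and 0 at 2-fold or more. Members called lower numbered 1 among genes detected on all 6 arrays, where Cox8b was not tested. Genes called were 3197 at an adjusted p under 0.01 and 3388 at 2-fold or more. The median of complex IV was 0.25 with quantile normalization. Leaving out each array in turn gave 3759 to 5026 genes called, 1 to 8 members called higher and 2 lower each time. Medians then ran from 0.18 to 0.40 over the members. The lowest counts of members came without skin replicate 1, skin replicate 2 or wound replicate 1.

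Values near 0 changed sign without a call. Atp5g1 was at -0.30 with probes averaged and at -0.36 in the authors' deposited table. Under detected-probe scaling, quantile normalization and the authors' deposited table, Atp5h was at -0.06, -0.09 and -0.00, Cox4i1 at -0.05, -0.08 and -0.02 and Ndufs1 at -0.04, -0.09 and -0.01. Ndufv3 was at -0.03 with quantile normalization and -0.02 in that table, and Ndufb11 at -0.03 in it. With 1 array left out, Atp5a1 ran from -0.19 to 0.08, Atp5h from -0.15 to 0.17, Cox4i1 from -0.18 to 0.21, Cox6a2 from -0.52 to 0.11, Ndufs1 from -0.03 to 0.11, Ndufv3 from -0.01 to 0.31 and Sdha from -0.10 to 0.00. The cause was not tested.

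Arrays 1 and 2 of each group share only a number. Deviations from the group means of same-numbered arrays correlated at 0.152 across genes within design 026655, and at 0.336, 0.186 and 0.367 over all arrays, where the design contributes. With that number as a replicate block in place of the design, 7 members were higher and 2 lower, of 5607 genes called, and Ndufa4 and Cox7c were the calls lost among members.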

Other observations

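Cox7b2 and Cox8c, testis forms of complex IV subunits that are on the arrays but not in the authors' table, were dim. Cox7b2 was well above background on 1 skin array and 0 wound arrays, and Cox8c on 0 of either.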
